A study of Homo sapiens with 10 samples.

Results

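The genes described here make haem and iron-sulfur clusters, the iron cofactors that mitochondria assemble. They are 33 symbols of the 54628 in the count table, chosen by name from the mitochondrial iron import, haem and cluster assembly pathways. Earlier results of these data were known when the list was drawn up. By role they are 2 carriers of iron into mitochondria, 7 enzymes of haem synthesis, 5 genes that support the haem pathway, 5 genes of the mitochondrial cluster assembly core, 8 of mitochondrial cluster transfer and 6 of cytosolic cluster assembly. Of the 33, 32 had enough counts to be tested. TMEM14C, a porphyrin carrier of the inner mitochondrial membrane, is listed at 0 in all 10 libraries and has no result. Many cell types express TMEM14C, TSPO and CYB5A, which are all listed at or near 0 here, so such a 0 may come from the counting or naming of genes and is not read as absent expression.

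The cells were NK92, an established human natural killer cell line from a lymphoma, and polyadenylated RNA was sequenced. The 5 groups of 2 libraries each were untreated cells at 0 h, cells given 500 µM DFO for 6 h or for 24 h, and cells given 10 µg/mL PPMX-T003, called T003 here, for 6 h or for 24 h. DFO is deferoxamine, a chelator that binds iron, and T003 is an antibody against transferrin receptor 1, the receptor that brings transferrin-bound iron into cells. All cells were one line grown in Artemis Medium-1 with human serum, and all untreated cells were taken at 0 h, so that time in culture and treatment cannot be told apart. Nothing in the labels states that the 2 libraries of a group are separate cultures. The p-values therefore speak to the spread among these libraries alone, and that spread may be technical.

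Haem synthesis begins and ends in mitochondria: ALAS1 joins glycine and succinyl-CoA in the matrix, the middle steps take place in the cytosol, and FECH inserts ferrous iron into protoporphyrin at the inner membrane. Iron-sulfur clusters are built on the scaffold ISCU with sulfur from the desulfurase NFS1, handed on by chaperones and carriers inside mitochondria, and placed into cytosolic and nuclear proteins by a separate set of factors. Both pathways draw on iron that the mitoferrins carry across the inner mitochondrial membrane, and FECH itself holds a cluster in mammals.

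Library totals ran from 107117892 to 143575614 estimated counts, with TMM scaling factors of 0.991 to 1.01. TFRC, the gene of the receptor that T003 binds, whose mRNA is known to rise when cells lack iron, stood at 177 and 165 CPM (counts scaled to library size) in untreated cells, 361 and 345 with DFO at 6 h, 437 and 419 with T003 at 6 h, 834 and 833 with DFO at 24 h, and 845 and 847 with T003 at 24 h. Of 10 markers of natural killer cells, 9 reached a mean of 1 CPM, and their sum was 2012 to 2239 CPM per library. The erythroid list, cells in which haem synthesis is far more active, had 0 of 9 genes at a mean of 1 CPM, a sum of at most 0.280 CPM, and HBB, HBG1 and HBG2 at 0 in all libraries. T cell markers reached that mean for CD3E and TRAC (2 of 7, sum 436 to 482 CPM) while CD3G and CD8B were at 0, and B cell markers for 0 of 4, with MS4A1 and CD79B at 0. The myeloid markers CD68 and ITGAX (2 of 5) brought that list to 5.50 to 5.73 CPM in untreated cells, 7.49 to 7.90 with DFO at 24 h and 6.41 to 7.24 with T003 at 24 h. The part of these marker sums in the results was not tested. In bulk RNA fewer cells of a type and less RNA per cell cannot be told apart.

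In untreated cells the pathways were expressed over a wide range. To compare genes, CPM was divided by the length in kilobases of the gene's canonical transcript. HSPA9, the mitochondrial chaperone that helps move clusters off ISCU but also imports proteins, had the highest length-scaled level at 194 CPM per kb, followed by the cluster carrier GLRX5 at 74.7, HMOX2 at 57.0 and ISCU at 53.9. The median of the 32 genes was 20.6. The lowest were FECH at 4.83, FDXR, the reductase that feeds electrons to cluster assembly, at 4.61, IBA57, a factor for 4-iron clusters, at 1.03, and ABCB6, a porphyrin transporter, at 0.569. Within haem synthesis CPOX stood highest at 49.5 CPM per kb, UROS at 32.8 and UROD at 32.6 came next, ALAS1 was at 21.4, ALAD at 6.76 and PPOX at 6.46. FECH and UROD had similar means of 37.1 and 38.9 CPM, but canonical transcripts of 7689 and 1193 bases. Which transcripts these cells use was not tested, so the order depends on the choice of length. Neighbours in this order overlapped in their libraries for 11 of 31 pairs, such as UROS with UROD, CPOX with NUBP2, and ALAD with ISCA2.

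**Figure D1:**
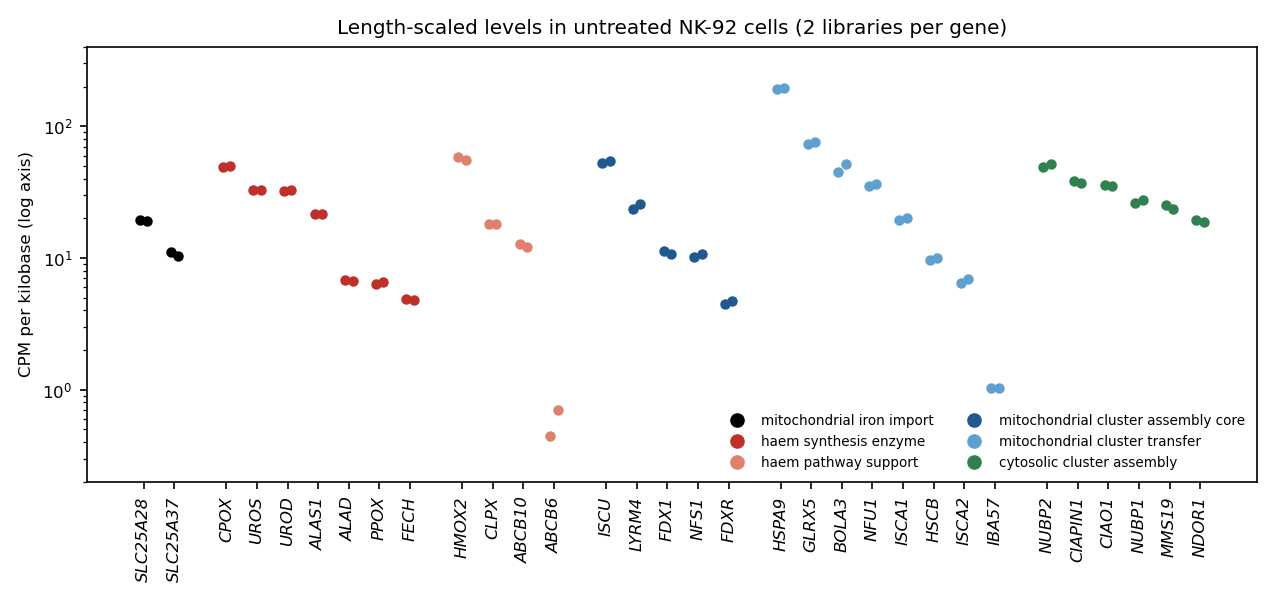
Length-scaled levels (CPM per kilobase of canonical transcript, log axis) of the 32 tested genes in untreated NK92 cells, grouped by role, with 1 point for each of the 2 libraries. HSPA9 lies highest at 194 and ABCB6 lowest at 0.569, and the 2 mitoferrin genes lie at 10.8 and 19.3.

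Haem synthesis begins with ALAS1 and ends with FECH, and the unfoldase CLPX acts on the ALAS enzyme. At 24 h of T003 the first rose and the other 2 fell, so the 250 bases or fewer before their transcription starts are shown for comparison, read 5′ to 3′ on the gene's strand from RefSeq (GRCh38.p14). The windows are chr3:52197833-52198082 on the plus strand for ALAS1, chr18:57586733-57586952 on the minus strand for FECH (220 bases, ending before its first annotated exon base) and chr15:65185343-65185592 on the minus strand for CLPX. Capitals mark matches on either strand to the GC box (GGGCGG) or the CCAAT box (CCAAT).
ALAS1: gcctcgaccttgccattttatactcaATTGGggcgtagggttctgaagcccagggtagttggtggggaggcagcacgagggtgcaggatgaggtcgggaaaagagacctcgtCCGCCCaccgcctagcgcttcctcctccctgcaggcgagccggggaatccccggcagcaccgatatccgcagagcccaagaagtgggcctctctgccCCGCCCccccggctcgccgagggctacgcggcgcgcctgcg
FECH: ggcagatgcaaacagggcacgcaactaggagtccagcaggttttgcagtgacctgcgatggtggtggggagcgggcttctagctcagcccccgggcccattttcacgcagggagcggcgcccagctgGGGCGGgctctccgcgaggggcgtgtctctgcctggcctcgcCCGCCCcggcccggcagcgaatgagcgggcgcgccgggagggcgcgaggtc
CLPX: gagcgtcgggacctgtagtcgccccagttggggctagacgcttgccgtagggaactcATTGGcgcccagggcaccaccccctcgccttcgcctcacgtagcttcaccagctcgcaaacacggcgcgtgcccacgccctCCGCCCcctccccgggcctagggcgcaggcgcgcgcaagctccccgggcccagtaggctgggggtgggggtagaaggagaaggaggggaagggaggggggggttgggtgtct
The ALAS1 window held 2 GC boxes and 1 CCAAT box, the FECH window 2 GC boxes and no CCAAT box, and the CLPX window 1 of each. A GC box is in 42.6% and a CCAAT box in 32% of 35116 RefSeq windows of 250 bases, so both are frequent. No match to the NRF1 motif (GCATGCGC, in 2.63% of windows) or to the E-box CACGTG (6.34%) was found in the 3 windows. The core of the antioxidant element (TGACNNNGC, 10.9%) was found in neither the ALAS1 nor the CLPX window. The full FECH window of 250 bases, which runs into the first exon (chr18:57586703-57586952), holds 1 match to it on the opposite strand, which begins in the bases shown and ends just past them, so it is not in capitals. All motifs were searched on both strands, and no match overlapped another.

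After 6 h of either agent none of the 32 genes passed the test. With DFO 0 of 32 were called by edgeR's quasi-likelihood test at an adjusted p under 0.05, where 0.0248% of all 20125 genes tested were called. With T003 0 of 32 were called, against 0.0298% of all genes. At an unadjusted p under 0.05 there were 4 of 32 genes with DFO and 1 of 32 with T003, beside 12.4% and 7.53% of all genes. limma-voom called 0 in both comparisons, and DESeq2 called NDOR1 with DFO and none with T003. Over all genes limma-voom called 25 with DFO and 5 with T003, and DESeq2 called 522 and 81.

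NDOR1, a flavoprotein that passes electrons to the cytosolic cluster machinery, had the smallest p at 6 h with each agent. It read 93.4 and 91.0 CPM in untreated cells, 80.6 and 83.1 with DFO at 6 h, and 86.9 and 85.2 after 6 h of T003. Both agents' libraries lay below both untreated ones, with a log2 difference of -0.17 (SE 0.0274, adjusted p = 0.0898) for DFO and -0.10 (SE 0.0274, adjusted p = 0.441) for T003, so neither passed. After 24 h it read 89.8 and 89.4 CPM with DFO and 95.6 and 94.6 with T003, below and above the untreated pair. A readthrough gene model covers 36% of its exon bases. Both libraries at 6 h of DFO also lay below the untreated pair for UROD, which removes carboxyl groups from uroporphyrinogen (33.4 and 35.4 against 38.5 and 39.2 CPM, log2 -0.18, SE 0.0453, adjusted p = 0.205). The same held for ALAD (18.8 and 19.0 against 21.3 and 21.0 CPM, log2 -0.16, SE 0.0577, adjusted p = 0.293), and neither passed. For 31 of the 32 genes the 95% interval of the 6 h difference lay within 0.5 log2 units of 0 with each agent, and ABCB6, the gene with the fewest counts, was the exception.

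After 24 h the iron carrier SLC25A37, the first enzyme ALAS1 and the haem oxygenase HMOX2 were higher with both agents, by 30% to 55% for the first 2 named genes and by 8% for HMOX2. With DFO these 3 of 32 (9.38%) were all that passed, with none lower, where 6.7% of all genes were called (3.43% higher and 3.27% lower). With T003 10 of 32 (31.2%) passed, the same 3 higher and 7 lower, where 12.5% of all genes were called (7.1% higher and 5.44% lower). The 7 lower genes were the haem enzymes ALAD, UROD and FECH, the unfoldase CLPX, the scaffold ISCU, the cluster carrier NFU1 and the cytosolic scaffold NUBP1, each lower by 7% to 17%. Of the 32 genes 31 had a mean of 5 CPM or more. Among the 9920 genes at that level 12.6% were called with DFO and 23% with T003, so the total counts are near the share for genes of similar level. That share was not split into higher and lower, so the 7 lower calls with T003 have no level-matched share beside them. The median log2 difference of the 32 genes was 0.01 with DFO and -0.0022 with T003, beside -0.0023 and -0.0069 over all genes tested. Both comparisons use the same 2 untreated libraries.

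**Figure D2:**
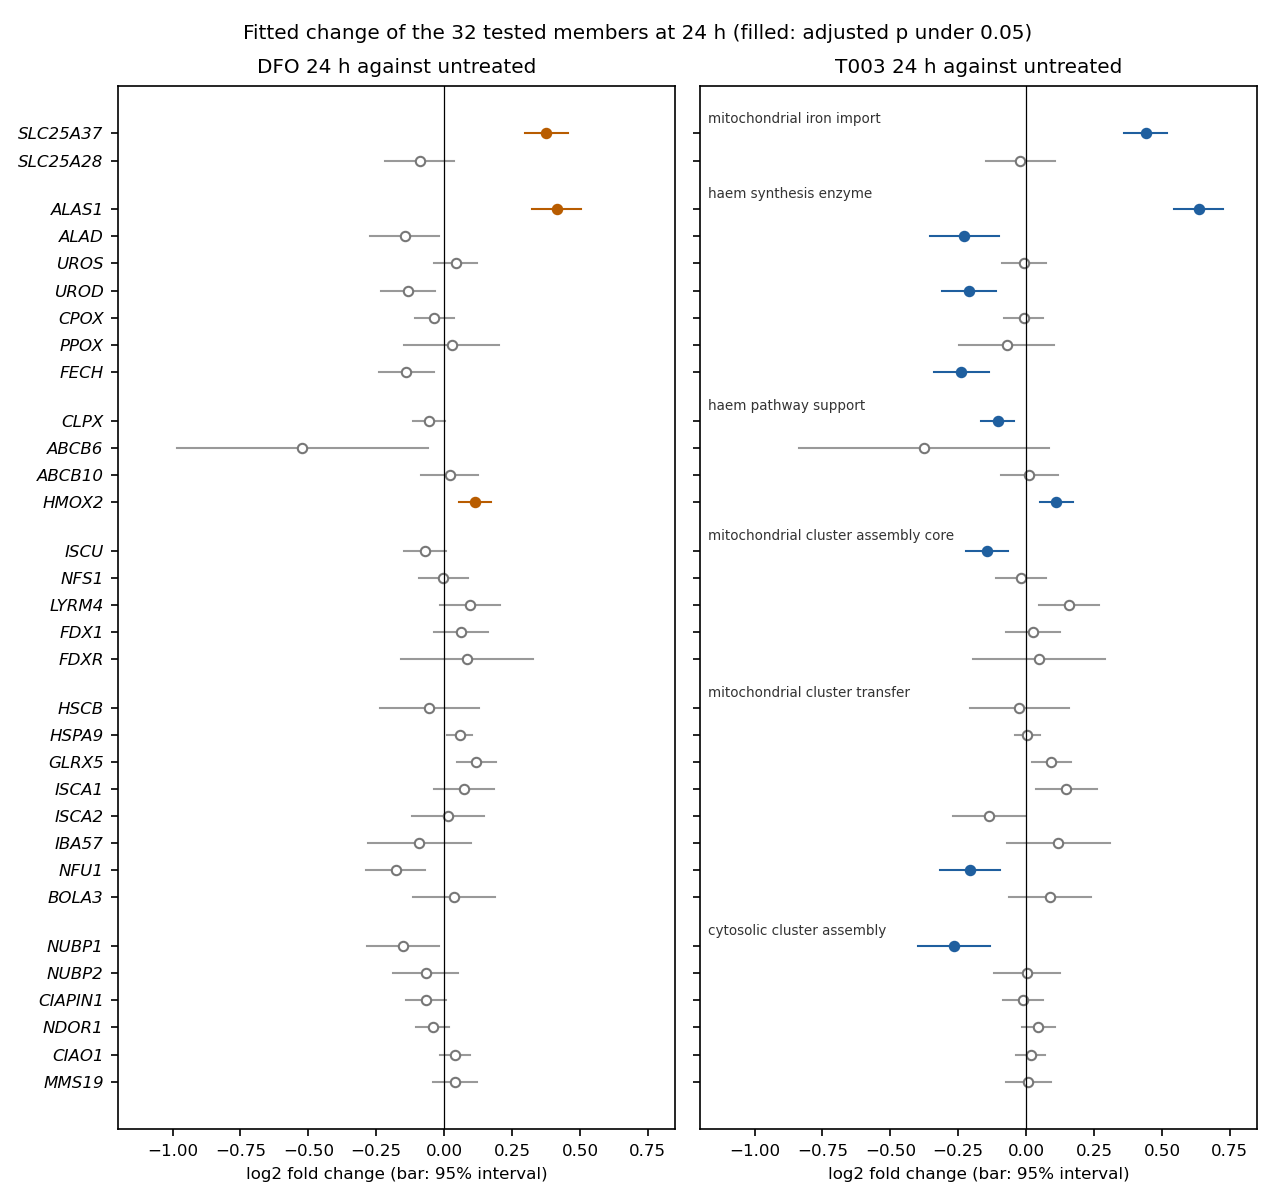
Fitted log2 fold change against untreated cells at 24 h for the 32 tested genes, DFO on the left and T003 on the right, with bars for the 95% interval and filled points where the adjusted p was under 0.05. With DFO 3 genes are filled, all to the right of 0, and with T003 10 are filled, 3 to the right and 7 to the left; the wide bar is ABCB6.

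The count with T003 rests on few libraries. Over all genes the number called also fell when a library of either compared group was left out. With the 4 compared libraries alone it fell from 2524 to 2271. Left without untreated replicate 2, the 10 calls became 3, without T003 24 h replicate 1 they became 5, and without T003 24 h replicate 2 they became 4, and fitting the 4 compared libraries alone gave 6. SLC25A37 and ALAS1 passed against untreated cells, with both agents, under each of the 18 alternatives run.

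Among the iron carriers, SLC25A37 (mitoferrin-1, chromosome 8, 23528956 to 23575463, hg38, plus strand) rose at 24 h, and it is the carrier best known from developing red cells. Its levels were 52.1 and 48.5 CPM in untreated cells, 52.1 and 52.3 with DFO at 6 h, 52.2 and 53.3 after 6 h of T003, 65.8 and 64.7 with DFO at 24 h, and 68.3 and 68.1 after 24 h of T003. All 6 libraries taken at 0 h or 6 h lay at or below 53.3 CPM and all 4 taken at 24 h at or above 64.7. The log2 rise was 0.38 (SE 0.0362, adjusted p = 0.000152) with DFO and 0.44 (SE 0.0362, adjusted p = 3.77e-05) with T003. SLC25A28, mitoferrin-2, the carrier used in most cell types, read 29.7 and 29.1 CPM untreated, 28.5 and 26.8 with DFO at 24 h and 29.8 and 28.1 after 24 h of T003. Its differences of -0.09 (95% interval -0.22 to 0.04) and -0.02 (-0.15 to 0.11) did not pass. Per kilobase SLC25A28 stood at 19.3 and SLC25A37 at 10.8 in untreated cells.

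ALAS1 (chromosome 3, 52198086 to 52214327, hg38, plus strand), the housekeeping form of the enzyme that starts haem synthesis and usually sets its rate, had the largest rise of the 32 genes. It read 50.9 and 50.9 CPM in untreated cells, 53.8 and 52.6 with DFO at 6 h, 54.1 and 53.9 after 6 h of T003, 67.4 and 68.3 with DFO at 24 h, and 75.3 and 82.7 after 24 h of T003. The 24 h libraries of each agent lay above all earlier ones, and the T003 pair lay above the DFO pair. The log2 rise was 0.41 (SE 0.0404, adjusted p = 0.000162) with DFO and 0.63 (SE 0.0404, adjusted p = 9.12e-06) with T003. The erythroid form ALAS2, of another gene, had between 0 and 14 estimated counts in a library.

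Along the later steps of haem synthesis no enzyme passed as higher, and ALAD, UROD and FECH fell with T003. FECH (chromosome 18, 57544377 to 57586732, minus strand), which makes haem from protoporphyrin and iron, read 37.5 and 36.7 CPM untreated, 33.3 and 34.1 with DFO at 24 h, and 32.8 and 30.1 after 24 h of T003. Every 24 h library lay below both untreated ones. With T003 FECH fell by 0.24 on the log2 scale (SE 0.0462, adjusted p = 0.00626), and with DFO its difference of -0.14 (SE 0.0460, adjusted p = 0.111) did not pass. Without T003 24 h replicate 2, the lower of that pair, the T003 difference was -0.18 and no longer passed (adjusted p = 0.0678).

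ALAD (chromosome 9, 113386312 to 113401290, minus strand), a zinc enzyme that joins 2 molecules of aminolevulinate into porphobilinogen, read 21.3 and 21.0 CPM untreated, 18.8 and 19.5 with DFO at 24 h, and 17.2 and 18.9 after 24 h of T003. It fell by 0.23 with T003 (SE 0.0578, adjusted p = 0.0255) and differed by -0.15 with DFO (SE 0.0576, adjusted p = 0.191). Both agents' libraries lay below the untreated pair, though the T003 call was lost without untreated replicate 1 or 2 (adjusted p = 0.113 in each case) and without T003 24 h replicate 1 (adjusted p = 0.200). UROD (chromosome 1, 45010950 to 45015575, plus strand) read 38.5 and 39.2 CPM untreated, 34.8 and 36.0 with DFO at 24 h, and 34.6 and 32.5 after 24 h of T003. It fell by 0.21 with T003 (SE 0.0453, adjusted p = 0.0111), lost without untreated replicate 2 (adjusted p = 0.0997) or T003 24 h replicate 2 (adjusted p = 0.120), and differed by -0.13 with DFO (SE 0.0452, adjusted p = 0.122). HECTD3 overlaps 9.31% of UROD's exon bases, and reads shared by the 2 genes could be split between them.

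The remaining enzymes did not pass at 24 h with either agent. UROS, which closes the tetrapyrrole ring, lay between 43.3 and 46.1 CPM in untreated and 24 h libraries. CPOX, which makes protoporphyrinogen in the space between the mitochondrial membranes, lay between 129 and 138 CPM. Their 95% intervals were -0.04 to 0.12 and -0.11 to 0.04 with DFO, and -0.09 to 0.07 and -0.08 to 0.06 with T003, narrower than the rise of ALAS1. PPOX, the enzyme before FECH, lay between 10.3 and 11.5 CPM, and reads could be shared with B4GALT3, which overlaps 23.7% of its exon bases.

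**Figure D3:**
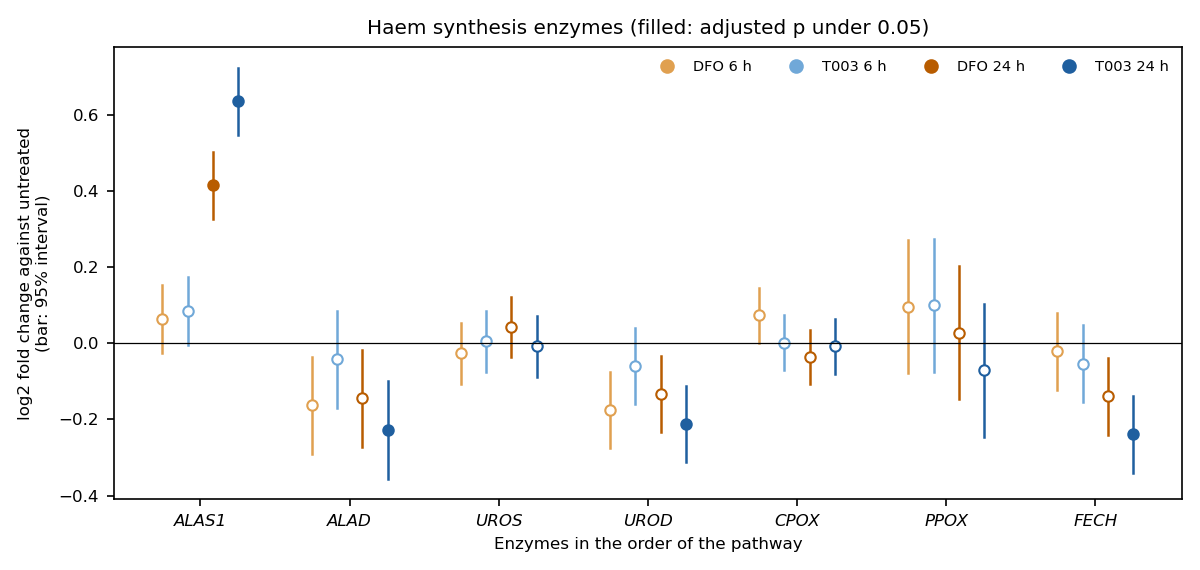
Log2 fold change against untreated cells with 95% intervals for the 7 haem synthesis enzymes described, in pathway order, at 6 h and 24 h of each agent, filled where the adjusted p was under 0.05. ALAS1 stands at 0.41 and 0.63 with DFO at 24 h and T003, while ALAD, UROD and FECH lie below 0 at 24 h and are filled only for T003.

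Of the 4 tested genes that support the haem pathway, 1 rose at 24 h of DFO (25%), and 1 rose and 1 fell with T003 (50%). Over all genes 6.7% and 12.5% were called. HMOX2 (chromosome 16, 4474690 to 4510347, plus strand), the constitutive oxygenase that breaks haem down and frees its iron, read 97.2 and 93.5 CPM untreated, 93.3 and 95.4 with DFO at 6 h, 96.8 and 96.4 after 6 h of T003, 103 and 103 with DFO at 24 h, and 104 and 102 after 24 h of T003. The 4 libraries at 24 h lay above the other 6, by a small margin. The log2 rise was 0.11 with DFO (SE 0.0273, adjusted p = 0.0323) and 0.11 with T003 (SE 0.0273, adjusted p = 0.0221). Without untreated replicate 2 neither rise passed (adjusted p = 0.245 and 0.197), and leaving out either library of the agent's own pair ended each call too (adjusted p = 0.111 and 0.143 for DFO, 0.167 and 0.0650 for T003). The DFO call was also lost without T003 6 h replicate 1 (adjusted p = 0.0618) or 2 (adjusted p = 0.0523). The inducible oxygenase HMOX1 had 0 to 3 estimated counts in a library.

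CLPX (chromosome 15, 65148219 to 65185342, minus strand), the unfoldase of a mitochondrial protease that helps load pyridoxal phosphate into the ALAS enzyme and also takes part in its removal, read 85.4 and 84.7 CPM untreated. It read 90.2 and 86.9 with DFO at 6 h, 85.6 and 86.6 after 6 h of T003, 81.9 and 81.8 with DFO at 24 h, and 79.9 and 78.3 after 24 h of T003. CLPX was thus lowest in the 4 libraries at 24 h. It fell by 0.10 with T003 (SE 0.0274, adjusted p = 0.0293), a call that ended on leaving out any of the 4 compared libraries (adjusted p = 0.0625 to 0.168), and differed by -0.06 with DFO (SE 0.0274, adjusted p = 0.310). ABCB10, an inner membrane transporter needed for haem synthesis, lay between 46.8 and 50.6 CPM in all 10 libraries. ABCB6 lay between 1.12 and 2.08 CPM, with the widest intervals of the 32 genes (-0.99 to -0.06 with DFO and -0.84 to 0.08 with T003 at 24 h, adjusted p = 0.195 and 0.317), and a readthrough gene model covers 54.6% of its exon bases.

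**Figure D4:**
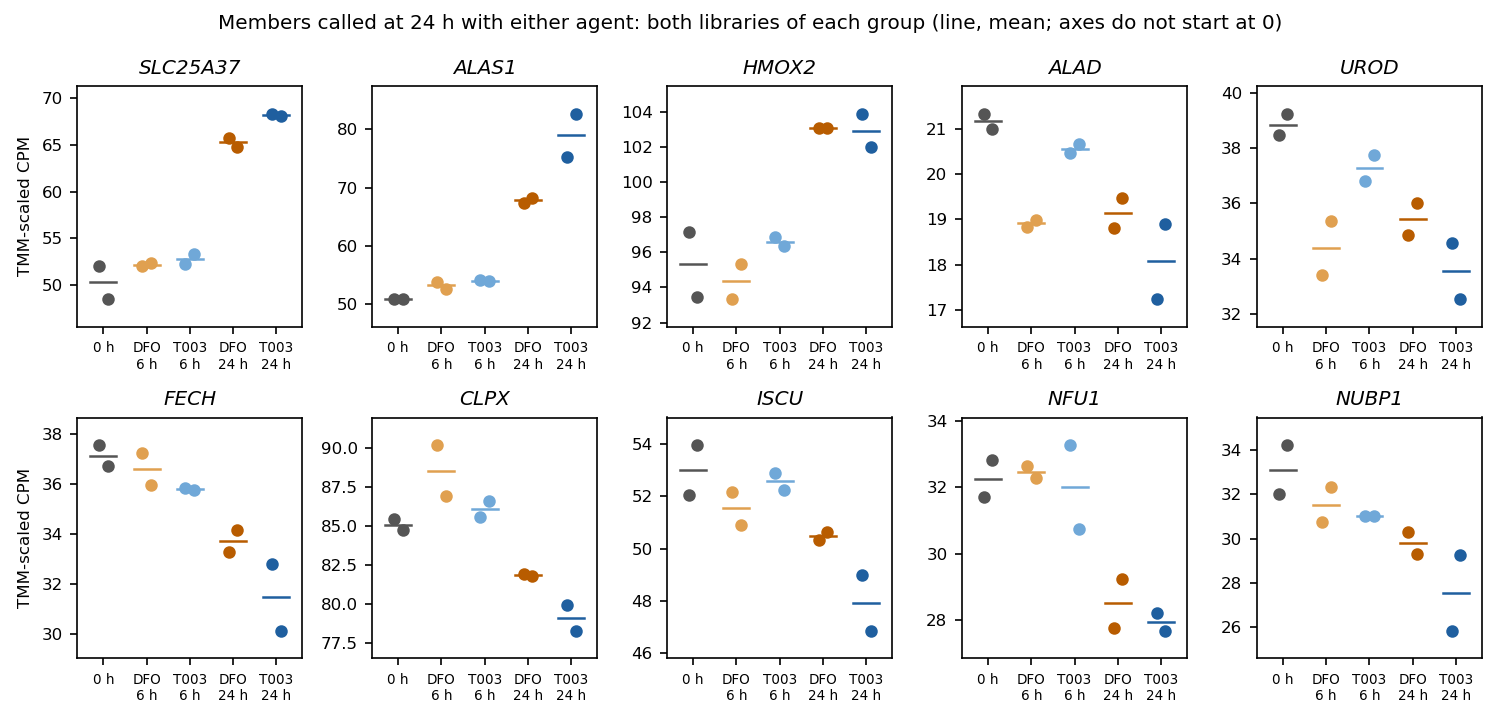
TMM-scaled CPM in both libraries of each of the 5 groups for the 10 genes called at 24 h with either agent; lines mark the group mean, and the axes do not start at 0. SLC25A37, ALAS1 and HMOX2 rise at 24 h, from 50.3 to 65.2 and 68.2 CPM for SLC25A37, and the other 7 genes have their lowest group mean at 24 h of T003.

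In the core of mitochondrial cluster assembly 0 of 5 genes passed at 24 h of DFO and 1 of 5 (20%) at 24 h of T003. Over all genes 6.7% and 12.5% were called, and 12.6% and 23% at 5 CPM or more. ISCU (chromosome 12, 108562582 to 108569368, plus strand), the scaffold on which clusters form, read 52.0 and 54.0 CPM untreated, 50.3 and 50.6 with DFO at 24 h, and 49.0 and 46.9 after 24 h of T003. It fell by 0.15 with T003 (SE 0.0353, adjusted p = 0.0209) and differed by -0.07 with DFO (SE 0.0352, adjusted p = 0.325). The T003 call was lost without untreated replicate 2 (adjusted p = 0.167) or T003 24 h replicate 2 (adjusted p = 0.157). NFS1, the desulfurase, lay between 29.7 and 32.2 CPM in all libraries, and its 24 h intervals were -0.09 to 0.09 with DFO and -0.11 to 0.07 with T003. LYRM4, the small protein that stabilises NFS1, read 35.2 and 38.4 CPM untreated and 41.8 and 40.3 after 24 h of T003, a difference of 0.16 (SE 0.0502, adjusted p = 0.0672) that did not pass. The electron donors FDX1, at 33.4 to 36.7 CPM, and FDXR, at 7.66 to 9.55 CPM, did not pass in any comparison.

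Among the 8 genes of mitochondrial cluster transfer only NFU1 passed at 24 h, as lower with T003 (12.5%), where 12.5% of all genes were called. NFU1 (chromosome 2, 69396113 to 69437628, minus strand), which delivers clusters to lipoate synthase and respiratory enzymes, read 31.7 and 32.8 CPM untreated, 32.6 and 32.3 with DFO at 6 h, 33.3 and 30.8 after 6 h of T003, 27.8 and 29.2 with DFO at 24 h, and 28.2 and 27.7 after 24 h of T003. The 4 libraries at 24 h lay below the other 6. NFU1 fell by 0.21 with T003 (SE 0.0495, adjusted p = 0.0195), a call lost without untreated replicate 2 (adjusted p = 0.144) or T003 24 h replicate 1 (0.0720) or 2 (0.116). With DFO its difference was -0.18 (SE 0.0494, adjusted p = 0.0586), which did not pass here and did with DESeq2 (adjusted p = 0.0226) and limma-voom (adjusted p = 0.0449).

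GLRX5, the glutaredoxin that receives clusters from ISCU, read 81.0 and 83.7 CPM untreated, 87.7 and 91.1 with DFO at 24 h and 90.1 and 85.6 after 24 h of T003. All 4 libraries lay above the untreated pair, but the differences of 0.12 (SE 0.0324, adjusted p = 0.0563) and 0.09 (SE 0.0325, adjusted p = 0.0945) did not pass; SNHG10 overlaps 12.6% of its exon bases. HSPA9 read 848 and 862 CPM untreated and 892 and 887 after 24 h of DFO, a difference of 0.06 (SE 0.0205, adjusted p = 0.146). ISCA1, a carrier for 4-iron clusters, read 38.3 and 39.4 CPM untreated and 41.5 and 44.5 after 24 h of T003 (0.15, SE 0.0508, adjusted p = 0.0900). Its partner ISCA2 read 16.8 and 17.9 CPM untreated and 15.6 and 15.8 after 24 h of T003 (-0.14, SE 0.0602, adjusted p = 0.188). The partners thus lay on opposite sides of the untreated pair with T003, and neither difference passed. HSCB, the cochaperone that brings ISCU to HSPA9, lay between 10.1 and 11.7 CPM and IBA57 between 7.43 and 9.14 CPM. BOLA3, which acts with NFU1 and GLRX5, lay between 24.9 and 28.8 CPM. CHEK2 overlaps 20.2% of HSCB's exon bases.

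In the cytosolic machinery 0 of 6 genes passed at 24 h of DFO and 1 of 6 (16.7%) at 24 h of T003, where 6.7% and 12.5% of all genes were called. NUBP1 (chromosome 16, 10743786 to 10769351, plus strand), which forms the cytosolic scaffold together with NUBP2, read 32.0 and 34.2 CPM untreated, 30.7 and 32.3 with DFO at 6 h, 31.0 and 31.0 after 6 h of T003, 30.3 and 29.3 with DFO at 24 h, and 25.8 and 29.2 after 24 h of T003. It fell by 0.27 with T003 (SE 0.0605, adjusted p = 0.0153) and differed by -0.15 with DFO (SE 0.0603, adjusted p = 0.191). The T003 pair was the most widely spread of the 7 falls, and without its lower library, replicate 1, the difference was -0.18 and did not pass (adjusted p = 0.124), nor did it without untreated replicate 2 (adjusted p = 0.144). TVP23A, on the opposite strand, overlaps 36.1% of NUBP1's exon bases with a mean of 106 estimated counts, and no source used here gives the strand setting of the counting, so reads of the 2 genes cannot be told apart. NUBP2, its partner, lay between 60.6 and 70.8 CPM and its 24 h intervals were -0.19 to 0.05 with DFO and -0.12 to 0.12 with T003.

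CIAO1 and MMS19, which hand clusters to DNA polymerases and helicases, lay between 139 and 146 CPM and between 80.3 and 88.3 CPM. CIAPIN1, the electron carrier that works with NDOR1, lay between 71.3 and 78.1 CPM. None of the 3 passed in any comparison, and their 24 h intervals with T003 were -0.04 to 0.07, -0.07 to 0.09 and -0.09 to 0.06 log2 units. Over the whole set, 28 of the 29 genes not called with DFO at 24 h and 21 of the 22 not called with T003 had intervals within 0.5 log2 units of 0, ABCB6 being the exception in both.

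The agents themselves were compared at matched times. At 6 h 0 of 32 genes differed between DFO and T003, where 0% of all genes were called, and DESeq2 and limma-voom called 0 of the 32. An unadjusted p under 0.05 was found for 3 of the 32, beside 6.63% of all genes. At 24 h 1 of 32 (3.12%) differed, where 1.34% of all genes (0.884% lower with DFO) and 2.66% of those at 5 CPM or more were called. That gene was ALAS1, lower with DFO than with T003 by a log2 difference of -0.22 (SE 0.0401, 95% interval -0.31 to -0.13, adjusted p = 0.0315), from means of 67.8 and 79.0 CPM. The call ended in 8 of 18 alternatives, 6 of them left-out libraries (untreated replicate 2, T003 6 h replicates 1 and 2, DFO 24 h replicates 1 and 2, T003 24 h replicate 2). Without T003 24 h replicate 2, which read 82.7 CPM, the difference was -0.15 (adjusted p = 0.190), and over the 6 left-out libraries the adjusted p was 0.0515 to 0.190.

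For the 7 genes called as lower with T003 alone, no difference between the agents passed at 24 h, and all 7 had fitted differences below 0 with DFO too. DFO minus T003 was 0.08 for ALAD (95% interval -0.04 to 0.21, adjusted p = 0.606), 0.08 for UROD (-0.02 to 0.18, 0.507) and 0.10 for FECH (-0.0021 to 0.20, 0.371). It was 0.05 for CLPX (-0.01 to 0.11, 0.483), 0.08 for ISCU (-0.0029 to 0.15, 0.381), 0.03 for NFU1 (-0.08 to 0.14, 0.887) and 0.11 for NUBP1 (-0.02 to 0.25, 0.456). A call with T003 and none with DFO is therefore no shown difference between the agents for these genes. SLC25A37 differed by -0.06 (-0.14 to 0.02, 0.483) and HMOX2 by 0.0020 (-0.06 to 0.06, 0.988).

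Between 6 h and 24 h of the same agent more genes moved than between untreated cells and 6 h. With DFO 7 of 32 (21.9%) passed, 5 higher and 2 lower at 24 h, where 9.89% of all genes (5.29% higher and 4.6% lower) and 18.1% of those at 5 CPM or more were called. The higher genes were SLC25A37, ALAS1, HMOX2, GLRX5 and NDOR1, and the lower were CLPX and NFU1. With T003 9 of 32 (28.1%) passed, 4 higher and 5 lower, where 13.5% of all genes (7.55% higher and 5.93% lower) and 24.9% at 5 CPM or more were called. The higher were SLC25A37, ALAS1, HMOX2 and NDOR1, and the lower were UROD, FECH, CLPX, ISCU and NFU1. ALAS1 rose by 0.35 (SE 0.0404, adjusted p = 0.000322) with DFO and 0.55 (SE 0.0404, adjusted p = 1.21e-05) with T003 over this time. SLC25A37 rose by 0.32 (SE 0.0362, adjusted p = 0.000278) and 0.37 (SE 0.0362, adjusted p = 8.52e-05).

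These counts also depend on single libraries, and the number called over all genes fell as well with each library named here left out. With DFO they were 2 without DFO 6 h replicate 1, 3 without DFO 24 h replicate 1 and 2 without DFO 24 h replicate 2. With T003 they were 3 without either T003 6 h library and 5 without either T003 24 h library. NDOR1's rises of 0.13 and 0.14 became 0.03 (adjusted p = 0.653) and 0.07 (adjusted p = 0.243) once the trend with GC content and length was removed.

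Other genes of the same biology were taken from 4 lists chosen by name. For comparison, 6.7% of all genes were called at 24 h of DFO and 12.5% at 24 h of T003. Among genes at 5 CPM or more the shares were 12.6% and 23%. Of 22 other haem pathway genes 18 were tested, with 0 higher and 2 lower at 24 h of DFO (11.1%) and 3 higher and 2 lower with T003 (27.8%). Their median was 0.01 and 0.06, and 0.0050 and 0.06 without ALAS2, which is at 0 in untreated cells. SLC48A1, which moves haem out of lysosomes, read 31.4 and 36.9 CPM untreated, 33.9 and 32.5 with DFO at 6 h, 34.7 and 34.9 after 6 h of T003, 20.6 and 20.6 with DFO at 24 h, and 19.9 and 19.9 after 24 h of T003. It fell by 0.73 (SE 0.0659, adjusted p = 0.000104) with DFO and 0.78 (SE 0.0661, adjusted p = 4.7e-05) with T003, larger in size than any change among the 32, and passed in all 18 alternatives. BACH1, a repressor that senses haem, fell by 0.26 (SE 0.0647, adjusted p = 0.0374) with DFO, a call lost without any 1 of the 6 libraries of the untreated, DFO 24 h and T003 6 h groups (adjusted p = 0.0585 to 0.230). With T003 the haem-binding PGRMC1 and PGRMC2 and the glycine carrier SLC25A38 rose by 0.13, 0.14 and 0.15 (adjusted p = 0.0328, 0.0437 and 0.0175). Each of these 3 rises was lost without untreated replicate 2 or either T003 24 h library, PGRMC2 and SLC25A38 also without untreated replicate 1, PGRMC1 without T003 6 h replicate 1, and PGRMC2 without either T003 6 h library (adjusted p = 0.0501 to 0.238). HMOX1, BLVRA, TSPO and ABCG2 had too few counts to test, at most 6 in a library.

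Of 20 other iron-sulfur assembly genes, all tested, 2 rose with DFO (10%) and 2 rose and 1 fell with T003 (15%), with medians of 0.07 and 0.0042. The shares called over all genes were 6.7% and 12.5%. LYRM7, which helps place a cluster in respiratory complex III, rose by 0.19 with both agents (SE 0.0389 for each, adjusted p = 0.0154 with DFO and 0.00906 with T003). Without untreated replicate 2 neither rise of LYRM7 passed (adjusted p = 0.135 and 0.0896), nor did the DFO rise without either DFO 24 h library (0.0736 and 0.0813) or the T003 rise without T003 24 h replicate 2 (0.0717). With T003 SDHAF3, an assembly factor of respiratory complex II, rose by 0.24 (adjusted p = 0.0233) and the chaperonin HSPD1 fell by 0.08 (adjusted p = 0.0142). SDHAF3 did not pass without untreated replicate 2 or either T003 24 h library (adjusted p = 0.105 to 0.197), nor HSPD1 without any 1 of the 4 compared libraries (0.0526 to 0.111).

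Of 36 genes whose proteins hold iron-sulfur clusters 35 were tested, and 1 rose and 2 fell with DFO (8.57%) while 4 rose and 1 fell with T003 (14.3%). Beside these counts, 6.7% and 12.5% of all genes were called. PPAT, the first enzyme of purine synthesis, rose by 0.19 (SE 0.0274, adjusted p = 0.00198) with DFO and 0.27 (SE 0.0274, adjusted p = 0.000138) with T003. With DFO the helicases RTEL1 and DDX11 fell by 0.26 and 0.14 (adjusted p = 0.0260 and 0.0450), DDX11 being named after its value was seen. RTEL1 did not pass without untreated replicate 2, T003 6 h replicate 2 or either DFO 24 h library (adjusted p = 0.0544 to 0.230), nor DDX11 without any 1 of the 8 libraries other than the T003 24 h pair (0.052 to 0.360). With T003 TYW1, DPH2 and UQCRFS1 rose by 0.15, 0.12 and 0.10 and NDUFV2, a complex I subunit, fell by 0.17 (adjusted p = 0.0139, 0.0131, 0.0239 and 0.0192). All 4 were lost without either T003 24 h library, TYW1 also without untreated replicate 1, DPH2 without untreated replicate 2, and UQCRFS1 and NDUFV2 without either untreated library (adjusted p = 0.0581 to 0.186). The medians were 0.0068 and 0.03. MOCS1 was listed at 0.

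Of 21 genes of haem-binding proteins 14 were tested, and 1 rose and 1 fell with DFO (14.3%) while 4 rose and 1 fell with T003 (35.7%), with medians of 0.02 and -0.0030. The shares called were 6.7% and 12.5% over all genes, and 12.6% and 23% at 5 CPM or more. NR1D1, a nuclear receptor that binds haem and represses clock genes, rose by 0.43 (SE 0.0846, adjusted p = 0.0118) with DFO and 0.59 (SE 0.0847, adjusted p = 0.00115) with T003, from 15.9 and 13.5 CPM untreated to 19.1 and 20.6 and to 21.6 and 22.8. The DFO rise of NR1D1 was lost without untreated replicate 2 (adjusted p = 0.122) or DFO 24 h replicate 2 (adjusted p = 0.102). DGCR8, a haem-binding partner of the microRNA-processing enzyme Drosha, fell by 0.27 (SE 0.0296, adjusted p = 0.000359) and 0.29 (SE 0.0297, adjusted p = 0.000138). It read 60.7 and 59.9 CPM untreated, 50.2 and 49.9 with DFO at 24 h and 49.8 and 48.7 after 24 h of T003, with no overlap. The changes of PPAT and DGCR8 with both agents, and of NR1D1 with T003, passed in all 18 alternatives. With T003 cytochrome c (CYCS), CYB5B and CYP51A1 rose by 0.13, 0.12 and 0.19 (adjusted p = 0.00458, 0.0149 and 0.00804). Without T003 24 h replicate 1 none of these 3 passed (adjusted p = 0.0644, 0.0731 and 0.0830), nor did CYB5B without T003 24 h replicate 2 (0.0848) or untreated replicate 1 (0.121), or CYP51A1 without untreated replicate 1 (0.0723). CYB5A, TDO2, HBB and PTGS2 were listed at 0, and IDO1, HBA1 and HBA2 had at most 15 counts in a library.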

How the data were processed

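Polyadenylated RNA of NK92 cells was sequenced in 10 libraries, 2 for each of 5 groups. The authors deposited 1 table of estimated counts per gene symbol, whole numbers that are not normalized. The submitters' processing notes name fastp 0.21.0 for trimming, HISAT2 2.2.1 for alignment on hg38 and StringTie 2.1.6 for counting, and the design text adds paired reads of 101 bp and RefSeq annotation. The value 3 occurs 8712 times, more often than 2 (8036) or 4 (4664), a pattern of counts derived from coverage. The deposited estimated counts needed no rounding. No source used here says whether counting used strand.

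Groups came from the sample labels, which give 6 h and 24 h where the design text gives 24 h alone. edgeR 4.0.16 (R 4.3.3) fitted all 10 libraries in 1 model with group as its only term (TMM scaling, filterByExpr with a minimum count of 10, quasi-likelihood F-test, 5 residual degrees of freedom). It left 20125 genes, and p-values were Benjamini-Hochberg adjusted over all of them in each of 8 comparisons, with genes called under 0.05. The script was tested on simulated data. SE is the log2 difference divided by the root of F, and intervals are 95%. CPM are TMM-scaled. Lengths and gene positions are from GENCODE 44 (hg38), and promoter sequences from RefSeq, where 30 of the 33 symbols were matched.

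The named genes are the 33, plus, from each other list, at most 6 genes called at 24 h and those under the count filter, markers at 1 CPM or more, and TFRC. A few genes of the other lists are counted in their totals but not reported here by name. The members and lists were chosen with earlier results of these data known. Alternatives were RLE scaling, no filter, at least 1 CPM in 2 libraries, DESeq2 1.42.0, limma-voom (limma 3.58.1), a replicate block, only the 4 libraries compared, leaving out each library, and, chosen after seeing the data, removal of the trend with GC content and length.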

Additional observations from a re-analysis of the deposited data

Results flagged for a closer look

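Levels after 6 h and after 24 h of the same agent were compared by the direct test of 24 h against 6 h (edgeR, adjusted over all genes), and 16 gene and agent pairs passed. No untreated cells were taken at 6 h or 24 h, so time in culture and treatment cannot be told apart in these differences. SLC25A37 was higher at 24 h than at 6 h by 0.32 on the log2 scale with DFO and 0.37 with T003, and ALAS1 by 0.35 and 0.55; these 4 passed in all alternatives run. HMOX2 was higher by 0.13 with DFO and 0.0917 with T003 (adjusted p = 0.0132 and 0.0489), and the T003 difference was lost in 16 of 18 alternatives. NDOR1, which at 6 h lay below the untreated libraries, was higher at 24 h by 0.13 with DFO and 0.14 with T003 (adjusted p = 0.0124 and 0.00528). GLRX5 was higher by 0.12 with DFO (adjusted p = 0.0378).

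Among the lower genes, CLPX stood at -0.11 with DFO and -0.12 with T003 (adjusted p = 0.0247 and 0.0131), and NFU1 at -0.19 and -0.20 (adjusted p = 0.0364 and 0.0236). With T003 UROD stood at -0.15 (adjusted p = 0.0499), FECH at -0.19 (adjusted p = 0.0216) and ISCU at -0.13 (adjusted p = 0.0289). Apart from SLC25A37 and ALAS1, these 12 differences were each lost in 3 to 16 of 18 alternatives. With groups of 2, no library could be tested for standing apart from its group.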

How the results depend on the processing

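The count of genes called at 6 h was 0 under every alternative and every left-out library, for both agents and for DFO against T003, except 1 (NDOR1, adjusted p = 0.000286) with DESeq2 for DFO. At 24 h of DFO the 3 calls became 5 with the 1 CPM filter, 6 with DESeq2, 6 with limma-voom and 5 with the GC and length trend removed, and 2 to 4 over the left-out libraries. At 24 h of T003 the 10 became 6 when only the 4 libraries compared were fitted, and 3 to 10 over the left-out libraries. DFO against T003 at 24 h went from 1 to 0 with the replicate block and with only the 4 libraries compared, and was 0 to 1 over the left-out libraries. DFO 24 h against 6 h went from 7 to 2 with only the 4 libraries compared and from 2 to 7 over the left-out libraries, and T003 24 h against 6 h, 9 in the fit reported, was 3 to 8 over them. The number called over all genes moved too. With DESeq2 it was 522 at 6 h of DFO. At 24 h of DFO it was 1349 in the fit reported, 1582 with the 1 CPM filter and 1867 with DESeq2. It was 1520 with limma-voom and 1697 with the GC and length trend removed. Fitting only the 4 libraries compared took it from 2524 to 2271 at 24 h of T003 and from 270 to 55 between the agents at 24 h. For 24 h against 6 h of DFO it went from 1991 to 1293. The cause of these shifts was not tested. Only the fits of the 4 libraries compared use fewer samples.

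Directions reversed in 4 places, all for DFO against T003 at 24 h and none of them called: HMOX2 -0.00659 and GLRX5 -0.00621 without T003 24 h replicate 2 (up to 0.0211 and 0.0674 without T003 24 h replicate 1), and NFU1 -0.0069 without DFO 24 h replicate 2 (up to 0.0709 without DFO 24 h replicate 1) and -0.0107 with the GC and length trend removed. No called result reversed under any of the 18 alternatives.

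Same-numbered replicates did not deviate together (10 correlations, -0.0521 to 0.0125), so the labels' numbers are not shown to pair samples. With the replicate block the calls were 3 at 24 h of DFO and 11 at 24 h of T003. For 24 h against 6 h they were 5 with DFO and 7 with T003. ALAS1 between the agents at 24 h had an adjusted p of 0.0513 with this block. Over all genes the number called went from 1349 to 1185 at 24 h of DFO and from 2524 to 2294 at 24 h of T003. For 24 h against 6 h it went from 1991 to 1809 with DFO and from 2714 to 2487 with T003. Having 2 libraries a group limits the precision: the median half-width of the 95% interval of the uncalled genes was 0.101 to 0.112 log2 units.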
